A study of Mus musculus with 8 samples.

Results

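The effect of an EL4 tumor on CD115+ monocytic cells of the bone marrow (BM) was measured by RNA-Seq in 4 of the 8 libraries of the study, chosen by their labels alone. CD115+ M-MDSCs of EL4 tumor-bearing (TB) mice (tCD115+) gave 2 libraries and CD115+ monocytes of naive, tumor-free mice (nCD115+) gave 2, and 13211 of 16160 genes with reads were tested. The other 4 libraries hold the CD115- cells of the same kinds of mice (tCD115- and nCD115-). They shared the estimate of spread and served for comparison at the end.

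All mice were wild type C57BL/6, 6 to 10 weeks old. The methods of the study give male or female mice, and its reporting summary gives male mice. None of 4 sex-linked genes tested was called. The Y-linked gene *Ddx3y* had 5290 and 3669 reads in tCD115+ and 4444 and 5188 in nCD115+. EL4, a T cell lymphoma line that grows in this strain, was injected under the skin, and the cells were taken 21 days later. Both groups were sorted for CD115 within the gate CD11c-CD11b+Ly6G-SiglecF-Ly6C-hi, so the names M-MDSC and monocyte follow the host and not a marker. The 2 libraries of a group are called biological replicates in the study, and whether a library pools animals is not stated. The p-values measure the spread between these libraries only, and an exact permutation test of 2 against 2 could not go below p = 0.333. In sorted bulk RNA, fewer cells of a type and less RNA per cell cannot be told apart.

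CD115 is the receptor of M-CSF and marks cells of the monocyte line. Ly6C-hi monocytes leave the BM, can give rise to macrophages and to some dendritic cells, and convert in part into patrolling Ly6C-lo monocytes. Type I interferon keeps a set of antiviral genes on at a low tonic level in resting monocytes, through transcription factors bound at a DNA element called the ISRE. In TB hosts, growth factors such as G-CSF and GM-CSF drive emergency production of myeloid cells, and IL-6 family cytokines and G-CSF act through STAT3.

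Library totals in all 8 libraries lay between 69692398 and 95353798 reads, with the lowest in replicate 2 and the highest in replicate 1 of tCD115+. Levels are given as CPM, read counts scaled to the TMM-adjusted library total so that libraries of unequal depth can be compared. Replicates correlated at 0.990 (tCD115+) and 0.991 (nCD115+) across genes, and libraries of different groups at 0.979 to 0.983. The sort was visible in the RNA. The mean FPKM (the authors' length-scaled values) in tCD115+ and nCD115+ was 2618 and 2413 for *Ly6c2*, 232 and 331 for *Csf1r*, which encodes CD115, and 180 and 205 for *Itgam* (CD11b). It was under 1 in both groups for the gated-out markers *Itgax* (0.617 and 0.675), *Siglecf* (0.581 and 0.494) and *Ly6g* (0.803 and 0.452). None of the 7 sorting marker genes passed the test. *Csf1r* stood at 891 and 869 CPM in tCD115+ and 1159 and 1333 in nCD115+, a log2 fold change of −0.50 (SE 0.22, adjusted p = 0.184). *Ly6c1* and *Ly6c2* are near-identical and their reads could have been split.

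Calls rest on the quasi-likelihood test of edgeR, adjusted by Benjamini and Hochberg's method over all tested genes and used for every adjusted p below, at an adjusted p under 0.05 and a change of 2-fold or more. In tCD115+ against nCD115+, 124 genes rose (0.939% of those tested) and 219 fell (1.66%), and the median log2 fold change of all tested genes was 0.02. Of the called genes, 39 rose and 69 fell by at least 4-fold, and 20 and 27 by at least 8-fold. With no limit on fold, 804 genes (6.09%) were higher and 555 (4.2%) lower. This balance depended on the fit, with 612 and 602 under DESeq2 size factors and 1165 and 1106 with DESeq2. With only the 4 CD115+ libraries it was 1894 and 1896. The libraries of both groups did not overlap in any called gene, against 36.3% of all tested genes with both tCD115+ libraries above and 31.1% with both below. A fit without 1 CD115+ library leaves 1 library in its group and has less power. A call lost there is not by itself a changed effect. The counts at the fold limit were lower in each such fit. They were 14 higher and 38 lower without replicate 1 of tCD115+ and 29 and 30 without replicate 2. They were 38 and 59 without replicate 1 of nCD115+ and 14 and 27 without replicate 2. Leaving out nCD115- replicate 1 gave 83 and 129, and replicate 2 gave 90 and 134. By contrast, 177 and 312 genes were called with only the 4 CD115+ libraries fitted, and 163 and 309 with DESeq2. In each of the 4 fits that left out a CD115+ library, 6 of the higher and 21 of the lower genes were called again.

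**Figure D1:**
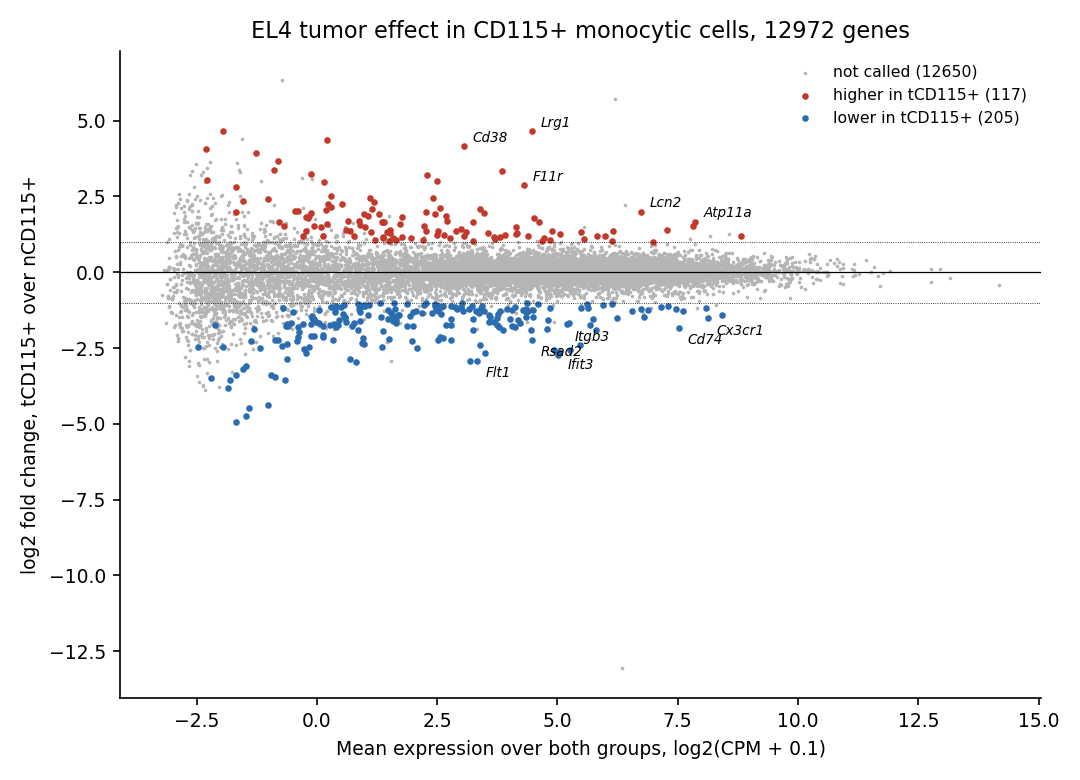
Each point is 1 of 12972 genes with reads in both groups, by its mean expression (x axis, log2 of CPM plus 0.1) and its log2 fold change, tCD115+ over nCD115+ (y axis), with dotted lines at 2-fold. The 117 red genes were higher and the 205 blue genes lower in tCD115+, and 239 genes with no read in 1 group are not drawn.

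Interferon-stimulated genes were lower as a group in EL4 TB mice. Of 47 tested members of this list, 17 fell and none rose (22 lower at any fold), and the median log2 fold change was −0.81. All 47 had a negative value, also with library totals, DESeq2 size factors, DESeq2 and limma-voom. The list was drawn up with earlier results of these data known, so this agreement rests in part on its membership. *Ifitm1* and *Plscr1*, which interferon can also induce, are outside it and were called higher. *Plscr1* had 2025 and 1294 reads in tCD115+ against 803 and 795 in nCD115+. The summed level of the 47 listed genes was 3210 and 3530 CPM in tCD115+ against 5240 and 5420 in nCD115+. Both tumor libraries lay below both naive ones in 46 of the 47 genes, against 31.1% of all tested genes.

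Several of the genes that fell have a match to the ISRE in their promoter. The letters TTTC, any 2 bases and TTTC were searched on both strands from 250 bases before to 50 bases after the start in RefSeq promoters (GRCm38.p6), a table that held 34 of the 47 genes. They were present for 19 of these 34 genes (55.9%), against 3.99% of 27025 genes with a promoter in the table, for 8 of 16 members that fell (50%) and for 11 of 18 that were not called (61.1%). Of all genes that fell, 22 of 164 (13.4%) had a match, and of all that rose, 4 of 99 (4.04%). The windows below show where the element lies in genes that fell, centred on the match nearest the start, with every match inside the window in capitals (read as GAAA, 2 bases and GAAA where it is on the opposite strand), each read 5′ to 3′ on the strand of its gene. *Ifit1* has 2 matches in its window, and *Isg15* has 3 overlapping ones.
*Ifit1*, chr19:34640784-34640833, plus strand, matches from −104 and −85: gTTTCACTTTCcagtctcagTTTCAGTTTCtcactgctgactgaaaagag
*Ifit3*, chr19:34583387-34583436, plus strand, match from −122: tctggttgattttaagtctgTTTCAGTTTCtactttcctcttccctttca
*Rsad2*, chr12:26456543-26456592, minus strand, match from −120: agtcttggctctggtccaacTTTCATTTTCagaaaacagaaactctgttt
*Cxcl10*, chr5:92349073-92349122, minus strand, match from −213: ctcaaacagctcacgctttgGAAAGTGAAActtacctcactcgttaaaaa
*Isg15*, chr4:156200855-156200904, minus strand, matches from −78, −72 and −66: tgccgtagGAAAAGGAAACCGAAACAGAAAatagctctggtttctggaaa
*Tgtp1*, chr11:48992294-48992343, minus strand, match from −77: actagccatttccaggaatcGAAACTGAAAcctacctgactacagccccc
*Tgtp2*, chr11:49064253-49064302, minus strand, match from −70: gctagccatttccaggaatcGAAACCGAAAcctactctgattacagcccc
The window of *Ifit3b* is identical to that of *Ifit3* in all 50 bases, and those of *Tgtp1* and *Tgtp2* share 38 of 50. A match is a run of letters and not evidence of binding.

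*Ifit3*, whose protein takes part in the sensing of viral RNA, stood at 10.3 and 7.81 CPM in tCD115+ and 53.5 and 59.2 CPM in nCD115+. Its log2 fold change was −2.63 (SE 0.20, adjusted p = 0.00181), and its close copy *Ifit3b* gave −2.66, and their reads may be divided between them. *Rsad2*, which encodes the antiviral enzyme viperin, stood at 7.39 and 8.20 CPM against 34.9 and 37.6 CPM and fell by 2.22 on the log2 scale (SE 0.17, adjusted p = 0.00181). The tumor libraries of these genes lay far below the naive ones, with little spread within a group. *Ifit2*, an RNA-binding member of the same family, stood at 17.9 and 17.8 CPM against 53.8 and 61.1 CPM (−1.68, SE 0.12, adjusted p = 0.00181). *Ifit1*, which binds foreign 5′ ends of RNA, fell by 1.77 (adjusted p = 0.00566), and *Ifi44* by 2.17 from a low level (0.445 and 0.908 against 2.83 and 3.18 CPM). *Cxcl10*, the chemokine that draws CXCR3+ lymphocytes, stood at 7.23 and 6.70 CPM against 18.8 and 20.4 CPM (−1.49, SE 0.11, adjusted p = 0.00181).

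The other members that fell were the RNA sensor gene *Ddx58* (−1.19), the ubiquitin-like modifier *Isg15* (−1.26), the nuclease *Isg20* (−1.27), *Oasl1* (−1.38), *Oasl2* (−1.29), *Rtp4* (−1.49), *Phf11d* (−1.49), *Samd9l* (−1.25), *Ddx60* (−1.23) and *Irf7* (−1.13), the transcription factor that amplifies the response, listed here in full after their values were seen. The genes of the interferon signal itself moved less. *Stat2* passed the test under the fold limit (−0.77), *Irf9* had −0.31 without passing, and the receptor genes *Ifnar1* and *Ifnar2* both had −0.22. *Usp18*, which restrains the receptor, had −1.07 and did not pass. Without replicate 1 or 2 of tCD115+ and replicate 1 or 2 of nCD115+, 9, 10, 10 and 9 members fell. *Ifit3*, *Ifit3b*, *Rsad2*, *Ifit2*, *Cxcl10*, *Isg20*, *Samd9l*, *Ddx58* and *Ddx60* were called in each of these 4 fits.

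The interferon-inducible GTPases, which attack the vacuoles of intracellular pathogens, showed a smaller shift. Of 15 tested, 3 fell (6 at any fold), none rose, and the median was −0.57, which became −0.31 without replicate 2 of tCD115+. *Tgtp2* stood at 6.05 and 6.07 CPM in tCD115+ against 21.1 and 21.3 CPM in nCD115+, a log2 fold change of −1.81 (SE 0.12, adjusted p = 0.00181), and its close copy *Tgtp1* fell by 1.75. *Gbp9* fell from 28.1 and 29.2 to 11.2 and 12.1 CPM (adjusted p = 0.0248), while the remaining guanylate-binding genes did not pass. Only 1 member fell without replicate 2 of tCD115+ or replicate 2 of nCD115+. None of 7 Schlafen genes passed at the fold limit. *Slfn5* stood at 194 and 209 CPM against 389 and 460 CPM (−1.07, adjusted p = 0.115), and *Slfn2*, the most abundant, was level (526 and 502 against 539 and 506 CPM).

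RNA of MHC class II genes was lower in part in tCD115+ cells. Of 12 tested genes of this presentation pathway, 6 fell and none rose, with a median of −0.77. *Cd74*, the invariant chain, stood at 91.7 and 71.2 CPM against 285 and 293 CPM, a log2 fold change of −1.83 (SE 0.17, adjusted p = 0.00365). *H2-Aa*, an α chain, stood at 26.7 and 19.8 CPM against 86.2 and 89.4 CPM (−1.92, SE 0.21, adjusted p = 0.00632). In both genes the tumor libraries lay far below the naive ones, with replicate 2 the lower. *H2-Eb1* and *H2-Ab1* (β chains) fell by 1.86 and 1.75. *Ciita*, the master regulator of the class II genes, stood at 5.79 and 5.67 CPM against 12.4 and 17.0 CPM (−1.36, adjusted p = 0.0185), and *H2-Ob* fell by 1.05 from 2.44 and 2.15 CPM.

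The chaperone and protease genes of the same pathway did not follow at the fold limit. *H2-DMa* had −0.49, *Ctss* −0.35, and *Ifi30* (the lysosomal reductase GILT) had 0.49, none of them past the test. Without replicate 2 of tCD115+, replicate 1 of nCD115+ or replicate 2 of nCD115+, 1, 3 and 1 class II genes were called. B cells, which carry class II, gave fewer marker reads in the same libraries. The summed CPM of 13 B cell genes was 17.5 and 13.3 in tCD115+ and 34.8 and 33.0 in nCD115+. *Cd79b* held the most reads of this list (1048 and 608 against 1474 and 1635) and was not called at the fold limit. The part of B cells in the class II result was not tested.

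MHC class I changed less. Of 20 genes of its presentation pathway, 1 fell, *H2-Q6*, a non-classical class I gene with near copies whose naive libraries differed (2.46 and 2.30 against 6.07 and 16.3 CPM, log2 fold change −2.24, adjusted p = 0.0218). That call was lost with only the 4 CD115+ libraries fitted and without either replicate of tCD115- or tCD115+. At any fold 7 were lower, but none without either replicate of tCD115+, 1 without either of nCD115+ and 4 without either of nCD115-. *H2-D1* stood at 1665 in both tumor libraries against 2059 and 2159 CPM (−0.34, adjusted p = 0.0453), and *H2-K1* had −0.49. *B2m*, the shared light chain, had −0.22 (adjusted p = 0.122), and the immunoproteasome genes *Psmb8* and *Psmb9* had 0.09 and 0.08.

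Some genes of dendritic cells fell. Of 23 tested, 7 fell, none rose, and all 23 values were negative (median −0.81, and −0.44 over the 19 with at least 10 counts in every library). *Cd209a*, a C-type lectin of monocyte-derived dendritic cells, stood at 2.01 and 2.16 CPM in tCD115+ against 15.2 and 16.4 CPM in nCD115+ (log2 fold change −2.92, SE 0.25, adjusted p = 0.00272). *Irf4*, a transcription factor of conventional type 2 dendritic cells and plasma cells, stood at 12.5 and 15.4 against 38.5 and 44.7 CPM (−1.58, adjusted p = 0.0117). *Batf3*, needed for type 1 dendritic cells, fell by 1.59 (1.57 and 1.46 against 4.40 and 4.72 CPM), and *Clec9a*, a receptor for dead cells on these, by 1.73 at under 2.2 CPM.

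The remaining calls of that list were low. *Siglech* and *Ly6d*, both known from plasmacytoid cells or lymphocytes, fell from about 1 CPM (1.02 and 0.911) and from 1.65 and 1.55 CPM. *Klrd1*, a receptor subunit of NK cells, fell from 0.382 and 0.430 CPM to 0 and 0.0275 CPM. *Irf8*, which specifies both monocytes and dendritic cells, was level (525 against 540 CPM on average), as were *Id2* and *Cd86*. *Flt3*, the receptor of early dendritic progenitors, stood at 10.2 and 5.17 against 14.8 and 18.8 CPM (−1.12, adjusted p = 0.0506). Without replicate 1 or 2 of tCD115+ and replicate 1 or 2 of nCD115+, 3, 1, 1 and 1 of the list fell. *Cd209a* was called in each.

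**Figure D2:**
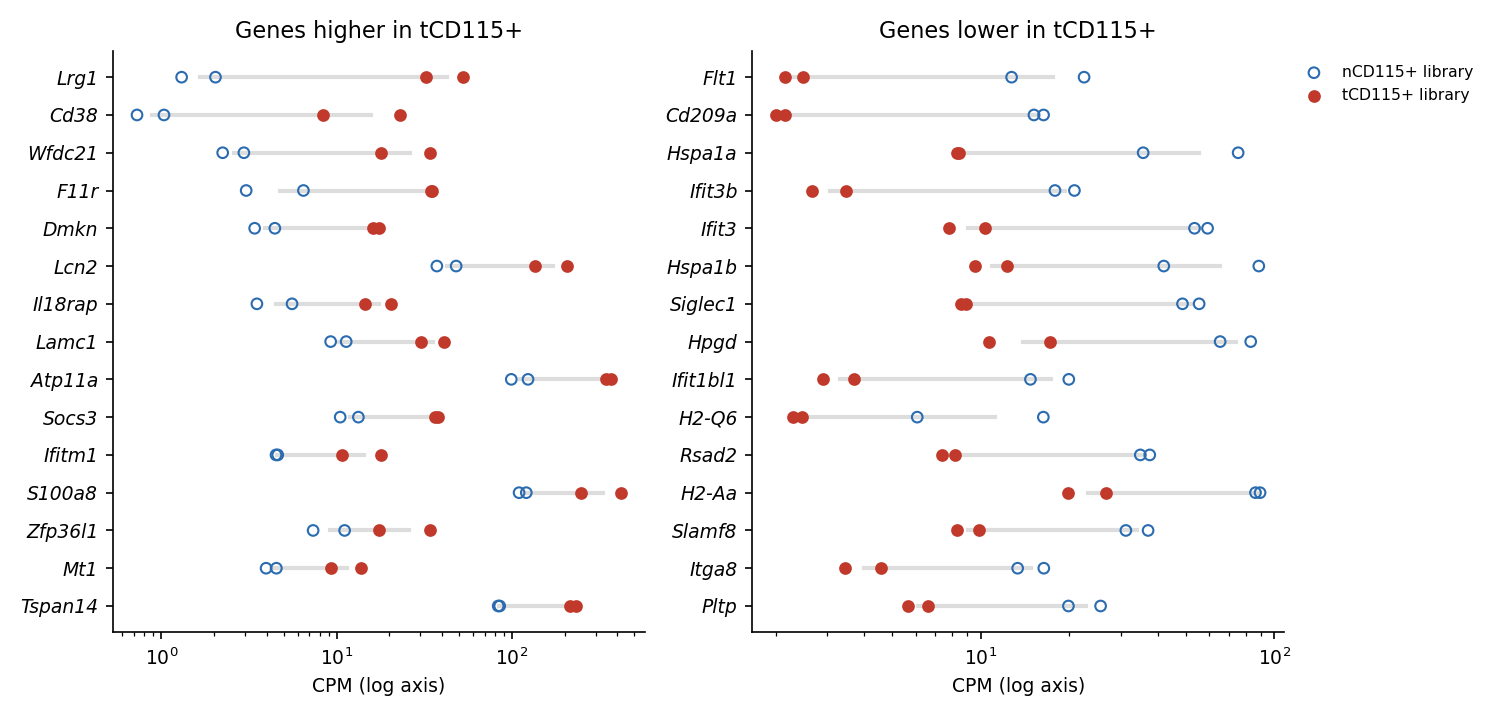
The level in each library (x axis, CPM on a log axis; red, tCD115+; open blue, nCD115+) of the 15 called genes of largest change per direction that reached 10 CPM on average in the higher group (predicted genes left out), with a grey bar between the group means. *Lrg1* had 52.7 and 32.6 CPM in tCD115+ against 1.31 and 2.04 in nCD115+. By the rule of choice, the groups overlap in no gene shown.

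Of 18 genes of nonclassical, patrolling monocytes, 5 fell and none rose (median −0.36, or −0.21 without replicate 2 of nCD115+). *Cx3cr1*, the fractalkine receptor, stood at 151 and 139 CPM in tCD115+ against 364 and 460 CPM in nCD115+ (log2 fold change −1.51, SE 0.22, adjusted p = 0.0126). *Adgre4* stood at 29.8 and 24.3 against 67.7 and 90.3 CPM (−1.55, adjusted p = 0.0100), and *Ace*, angiotensin-converting enzyme, at 37.3 and 41.2 against 93.6 and 129 CPM (−1.50, adjusted p = 0.0483). The call of *Ace* was lost in 9 of 16 alternatives, with adjusted p up to 0.257, among them library totals, no filter and the replicate block (adjusted p = 0.0532). *Pparg* and *Cd36*, a lipid-sensing receptor and a lipid scavenger, fell by 1.42 and 1.24 at under 5 CPM. *Nr4a1*, on which the patrolling cells depend, had −0.58, and *Spn* had −0.08, neither past the test. The 5 calls became 0, 0, 2 and 0 without replicate 1 or 2 of tCD115+ and replicate 1 or 2 of nCD115+, and 3 without either replicate of nCD115-.

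Of 24 classical monocyte genes none passed at the fold limit, and the median was −0.03, with 9 positive and 15 negative values. With only the 4 CD115+ libraries, 6 of them were lower at any fold. The difference between the nonclassical and classical lists was not tested. *Ccr2*, which lets monocytes leave the BM, was at 2413 against 2533 CPM on average (−0.07), and *Fn1* and *Lyz2* had −0.31 and −0.43 without passing. *Hp*, which encodes haptoglobin, was higher under the fold limit (0.43). *Vcan*, a proteoglycan gene, had 1.28 without passing. Among 26 transcription factors of myeloid fate, 4 fell. They were *Irf4* and *Batf3* (above), *Batf2* (−1.07) and *Atf3* (−1.04), and these calls became 0, 1, 0 and 0 without replicate 1 or 2 of tCD115+ and replicate 1 or 2 of nCD115+. *Spi1*, *Klf4*, *Irf8*, *Cebpb* and *Cebpe* had values between −0.05 and 0.11. *Cebpa* had −1.35 without passing, with tumor libraries at 10.9 and 113 CPM against 163 and 152 CPM.

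Genes of neutrophil granules and of mature neutrophils moved up in part. All 14 primary granule genes had a positive log2 fold change (median 0.64, against 0.02 for all genes), also under each scaling tried. In all 14 both tumor libraries lay above both naive ones, against 36.3% of all tested genes. Only *Prtn3*, the gene of proteinase 3, was called at the fold limit (log2 fold change 1.21), and this call was lost without any 1 of the 6 libraries other than those of tCD115-. At any fold 3 members were higher, 9 with DESeq2 and none without any 1 of the 4 CD115+ libraries. The summed CPM of the 14 genes was 3960 and 4100 in tCD115+ against 2690 and 2490 in nCD115+. *Ctsc*, which activates the serine proteases of these granules, stood at 1402 and 1476 against 893 and 1020 CPM (0.59, adjusted p = 0.0776). The proteases *Elane* and *Ctsg* and the peroxidase *Mpo* had 0.74, 0.60 and 0.41 without passing.

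The 13 secondary granule genes split. *Lcn2*, whose protein binds bacterial siderophores, stood at 206 and 136 CPM in tCD115+ against 37.3 and 48.1 CPM in nCD115+ (2.002, SE 0.28, adjusted p = 0.0118). *Cd177*, a neutrophil surface protein, moved the other way, with 179 and 153 against 341 and 415 CPM (−1.19, SE 0.20, adjusted p = 0.0182). *Mmp8* passed under the fold limit (0.72), whereas the granule genes *Ngp*, *Camp* and *Ltf* had 0.00, −0.41 and 0.29. *Cd177* was not called without any 1 of the 4 CD115+ libraries, and *Lcn2* not without replicate 1 of tCD115+ or either replicate of nCD115+.

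Of 24 tertiary granule and mature neutrophil genes, 7 rose and none fell at the fold limit (median 1.18, which became 0.23 without replicate 1 of tCD115+). *Lrg1*, on chr17:56119678-56121946, which encodes a secreted leucine-rich glycoprotein of neutrophils and liver, had the largest rise of all genes that reached 10 CPM on average. It stood at 52.7 and 32.6 CPM in tCD115+ against 1.31 and 2.04 CPM in nCD115+ (4.67, SE 0.38, adjusted p = 0.00232). *Wfdc21*, a secreted protein gene, stood at 34.1 and 18.0 against 2.24 and 2.96 CPM (3.33, adjusted p = 0.00873), and *S100a8*, a calprotectin subunit, at 418 and 247 against 110 and 121 CPM (1.53, adjusted p = 0.0299). In all 3 genes replicate 1 of tCD115+ was the higher. *Trem1*, an activating receptor, and *Cxcr2*, the receptor by which neutrophils leave the BM, rose by 1.84 and 1.91 on the log2 scale, *Cxcr2* from 0.787 and 0.798 CPM only. The decoy receptor *Il1r2* and the membrane protease *Mmp25* rose by 1.66 and 1.36. The call of *Il1r2* (adjusted p = 0.0467) was lost in 10 of 16 alternatives, with adjusted p up to 0.234, among them limma-voom, DESeq2 size factors, no filter and the replicate block. *S100a9*, the partner of *S100a8*, had 1.11 without passing. *S100a8* was not called with only the 4 CD115+ libraries or without any 1 of the 6 libraries other than those of tCD115-.

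Markers of neutrophils did not move as 1 block. Of 12, *S100a8* and *Cxcr2* rose and *Cd177* fell, and their summed CPM overlapped, at 1540 and 1010 in tCD115+ and 890 and 1080 in nCD115+. *Ly6g* was at 0.980 and 0.468 against 0.360 and 0.450 CPM. The part of neutrophils in these changes was not tested. Without replicate 1 or 2 of tCD115+ and replicate 1 or 2 of nCD115+, 2, 3, 1 and 1 mature neutrophil genes rose, and 4 with limma-voom. *Trem1* was not called without replicate 1 of tCD115+ or either replicate of nCD115+. *Lrg1* was called in every fit.

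Of 19 acute phase and secreted protein genes 4 rose, *Lrg1*, *Wfdc21* and *Lcn2* of the lists above and *Saa3*, an acute phase apolipoprotein of macrophages, at 13.2 and 6.37 CPM against 1.38 and 1.06 CPM (3.004, SE 0.43, adjusted p = 0.0123). The median of the list was 0.50, but 0.14 without replicate 1 and 0.87 without replicate 2 of tCD115+. Of these, 2 rose without replicate 1 of tCD115+ and 1 without either replicate of nCD115+. *Chil3*, *Fgl2*, *Thbs1* and *C3* had values between −0.26 and 0.82 without passing.

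Of 20 JAK-STAT feedback and target genes 1 rose at the fold limit. *Socs3*, the STAT3-induced inhibitor of IL-6 and G-CSF receptors, stood at 38.0 and 36.6 CPM in tCD115+ against 10.5 and 13.3 CPM in nCD115+ (1.65, SE 0.28, adjusted p = 0.0178). *Pim1* and *Il4ra*, 2 further STAT targets, were higher under the fold limit (0.91 and 0.61). *Socs1*, which is induced by interferons, was lower (−0.84), as was *Bcl6* (−0.44), both under the fold limit. *Cish*, *Stat3* and *Osm* had 0.07, 0.09 and 0.05 without passing. The STAT site, TTC, any 3 bases and GAA, reads the same on both strands. It was in the promoter of 3 of 15 genes of the list and of 9.55% of all genes. Among all called genes with a promoter in the table, 12 of 99 that rose (12.1%) and 21 of 164 that fell (12.8%) had it. Of 3 acute phase genes that rose and had a promoter there, none had it. The site is shown for *Socs3*, the member of the list that rose.
*Socs3*, chr11:117969492-117969540, minus strand, match from −154: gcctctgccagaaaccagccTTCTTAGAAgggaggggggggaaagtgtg
*Socs3* was not called without any 1 of the 4 CD115+ libraries, with values between 1.48 and 1.83 over all alternatives.

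**Figure D3:**
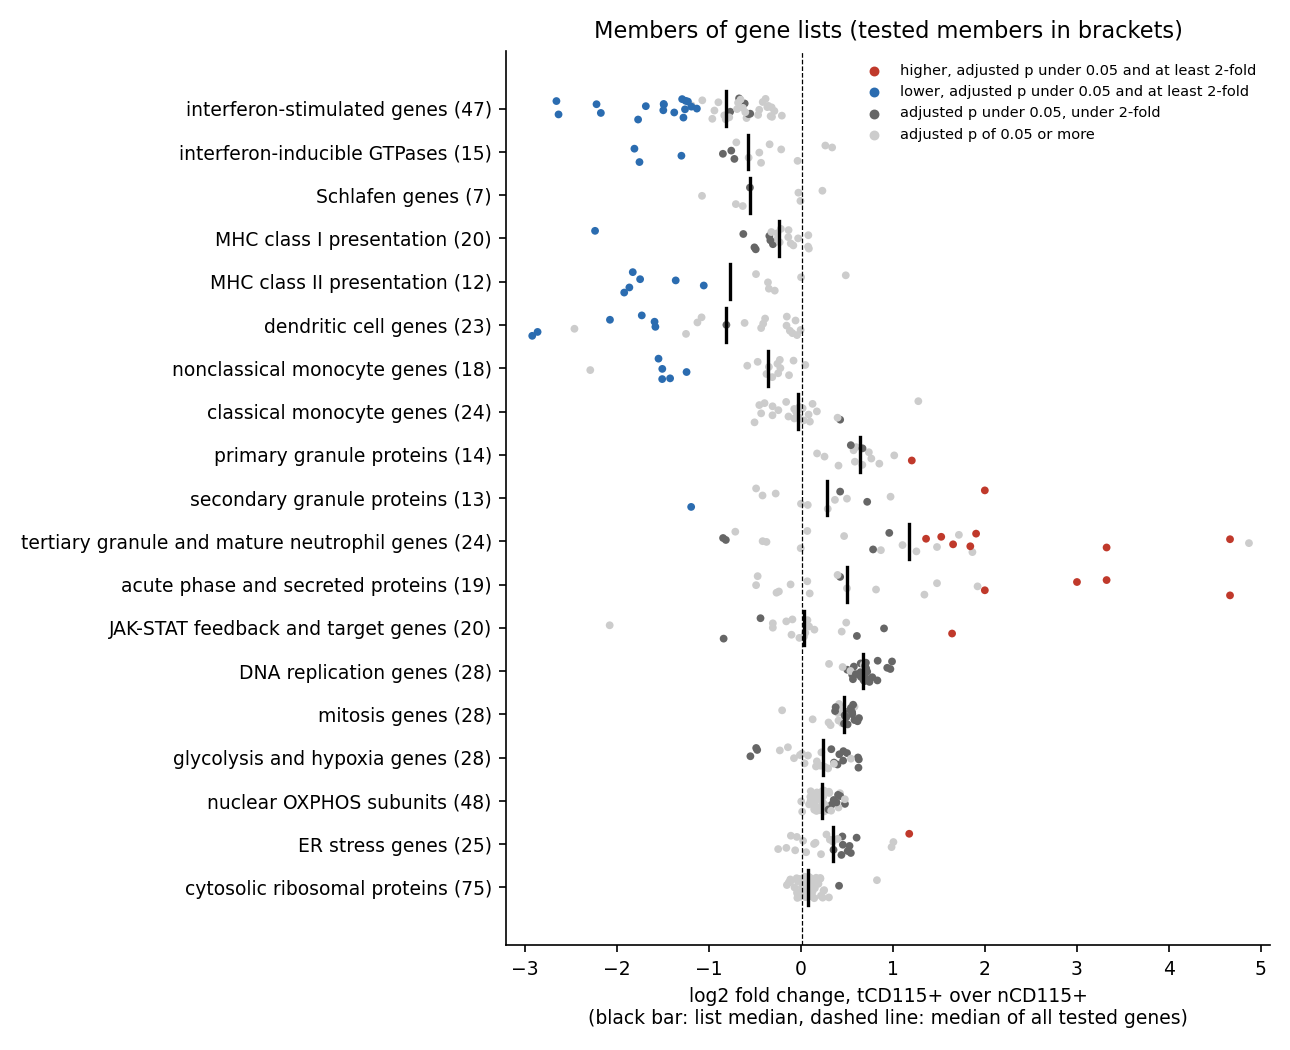
Log2 fold change (x axis, tCD115+ over nCD115+) of each tested member of 19 gene lists, with the list median as a black bar and the median of all tested genes (0.02) as a dashed line, and 3 members beyond the axis. The interferon-stimulated genes lie wholly to the left (median −0.81) and the DNA replication genes wholly to the right (median 0.68), the latter under 2-fold.

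Among 27 cytokine receptors 3 rose. *Il18rap*, the accessory chain of the IL-18 receptor, stood at 20.3 and 14.5 CPM in tCD115+ against 5.57 and 3.51 CPM in nCD115+ (1.95, SE 0.28, adjusted p = 0.0120). *Il21r* stood at 7.03 and 6.58 against 2.85 and 1.90 CPM (1.52, adjusted p = 0.0101), and the third was *Il1r2*. The receptor chains of GM-CSF, *Csf2rb* and *Csf2rb2*, were higher under the fold limit (0.45 and 0.56). *Csf3r*, the G-CSF receptor gene, had −0.37, *Il6ra* −0.29 and *Il10ra* −0.69, none past the test. *Il18rap* was not called without replicate 1 of tCD115+ or replicate 2 of nCD115+, and *Il21r* not without either replicate of tCD115+ or replicate 2 of nCD115+.

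Chemoattractant receptors and their ligands changed in a few members. Of 19 receptors, *Cxcr2* rose and *Cx3cr1* and *S1pr1* fell, the last at under 0.6 CPM. *Ccr1*, *C5ar1* and *C5ar2*, receptors of inflammatory chemokines and of complement C5a, were higher under the fold limit (0.86, 0.95 and 0.88). *Cxcr4*, which holds cells in the BM, was level (−0.02). Of 15 chemokine genes, *Cxcl10* and *Ccl5* fell, *Ccl5* from 1.36 and 1.89 to 0.384 and 0.358 CPM (−2.13, adjusted p = 0.0117), and *Ccl6* was lower under the fold limit (−0.81). *Cx3cr1* and *Ccl5* were not called without either replicate of tCD115+ or replicate 2 of nCD115+, and *Cxcr2* and *S1pr1* not without any 1 of the 4 CD115+ libraries.

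Genes tied to T cell suppression by MDSCs showed no common direction. Of 23 tested, *S100a8* and *Trem1* rose, none fell at the fold limit, and the median was −0.01. Neither rose without replicate 1 of tCD115+ or either replicate of nCD115+, and 1 did without replicate 2 of tCD115+ or either replicate of nCD115-. *Cd274*, which encodes PD-L1, was lower under the fold limit (−0.64, 3.73 against 5.85 CPM on average). *Arg1* had 6 and 0 reads in tCD115+ and 0 and 0 in nCD115+. *Nos2* was at or under 0.0102 CPM on average in both groups, *Arg2* and *Ido1* at under 1 CPM, and *Tgfb1* and *Vsir* had −0.14 and −0.18. The NADPH oxidase genes *Cybb*, *Ncf1* and *Cyba* had values between −0.40 and 0.02 without passing. In the study's co-cultures, CD115+ M-MDSCs of EL4 TB mice suppressed CD8+ T cells, and CD115+ monocytes of naive mice did not. RNA levels do not measure that function.

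Of 16 genes of NAD and adenosine handling 1 rose and 1 fell. *Cd38*, on chr5:43868809-43912374, an ectoenzyme that consumes NAD, stood at 22.96 and 8.39 CPM in tCD115+ against 1.04 and 0.726 CPM in nCD115+ (4.16, SE 0.61, adjusted p = 0.0132). The tumor libraries differed from each other more than in most genes named here, and the call was lost with limma-voom, with only the 4 CD115+ libraries and without replicate 1 of tCD115+ or either replicate of nCD115+. *Bst1*, the relative of *Cd38* that lies near it on the same chromosome, was higher under the fold limit (0.95). *Adora2a*, an adenosine receptor gene, stood at 2.76 and 3.04 against 8.67 and 10.8 CPM and fell by 1.75 (SE 0.22, adjusted p = 0.00997), a call lost without either replicate of tCD115+ or replicate 2 of nCD115+. *Entpd1* (CD39) was lower under the fold limit (−0.64), and *Adora3* was higher (0.87).

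*Hpgd*, which breaks down prostaglandin E2, was the only one of 18 eicosanoid genes to pass at the fold limit. It stood at 17.2 and 10.7 CPM in tCD115+ against 65.4 and 83.1 CPM in nCD115+ (−2.41, SE 0.25, adjusted p = 0.00521) and was called in every fit. The synthesis genes *Ptgs1* and *Ptges3* had −0.37 and 0.42 without passing and *Alox5ap* −0.12. *Ptgir*, the prostacyclin receptor gene, and *Tbxas1*, thromboxane synthase, were lower under the fold limit (−0.86 and −0.55).

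Of 25 angiogenic and matrix factors, *Flt1* and *Timp2* fell and *Mmp25* rose (median 0.15, between 0.10 and 0.31 without any 1 of the 4 CD115+ libraries). Without any 1 of these libraries no member was called higher, and without either replicate of tCD115+ 1 was called lower. *Flt1*, the gene of VEGF receptor 1, stood at 2.48 and 2.16 CPM in tCD115+ against 12.7 and 22.5 CPM in nCD115+ (−2.92, SE 0.30, adjusted p = 0.00517). *Itgb3*, the integrin β3 chain of platelets and some monocytes, stood at 16.7 and 17.4 against 54.5 and 57.3 CPM (−1.71, SE 0.07, adjusted p = 0.000317), and was called in every fit. The other 7 markers of megakaryocytes and platelets were at under 1 CPM and not called. *Itga8*, another integrin and a member of no list, fell by 1.90, and *Timp2*, an inhibitor of matrix proteases, by 1.29 (13.4 and 10.8 against 27.9 and 31.4 CPM, adjusted p = 0.00415). Markers of endothelial and stromal cells summed to 1.24 and 1.38 against 2.15 and 2.24 CPM, with none of 7 called. *Flt1* was not called without replicate 1 or 2 of tCD115+, nor was *Itga8* without replicate 1 of tCD115+ or replicate 2 of nCD115+.

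Of 13 markers of BM macrophages 2 fell (4 with DESeq2), and the median was −0.23, but between −0.78 and −0.12 when 1 of the 4 CD115+ libraries was left out, the lowest value being that without replicate 1 of tCD115+. *Siglec1*, the sialic acid receptor sialoadhesin, which interferon also induces, stood at 8.93 and 8.54 CPM against 48.6 and 55.4 CPM (−2.57, SE 0.26, adjusted p = 0.00517). *Mrc1*, the mannose receptor, stood at 4.75 and 4.81 against 13.8 and 14.2 CPM (−1.55, SE 0.15, adjusted p = 0.00416). The summed level of the 13 markers was 135 and 131 against 202 and 212 CPM, a gap that came mostly from *Siglec1*. *Hmox1* held the most reads of the list, 8618 and 6400 against 8169 and 9270. Of the 13 values 4 were positive and 9 negative. The complement genes *C1qa*, *C1qb* and *C1qc*, typical of resident macrophages, were at most at 2.35 CPM in any library. *Siglec1* was not called without replicate 1 or 2 of tCD115+, and *Mrc1* not without replicate 1 of tCD115+. *Slamf8*, a myeloid receptor of the SLAM family, stood at 9.87 and 8.28 against 31.2 and 37.1 CPM (−1.91, SE 0.13, adjusted p = 0.00181). *Pltp*, a phospholipid transfer protein gene, fell by 1.89 and was not called without either replicate of tCD115+ or replicate 2 of nCD115+.

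Few innate sensing and signaling genes were called at the fold limit. Of 28 pattern recognition receptors, *Cd209a* and *Mrc1* fell and none rose at the fold limit (median −0.26), and *Tlr4* and *Clec4e* were higher under it (0.46 and 0.79). Of 26 genes of the IL-1, inflammasome and TNF pathways, *Traf1* and *Ltb* fell, both under 2.5 CPM, and the NF-κB feedback genes *Tnfaip3*, *Nfkbie*, *Relb* and *Nfkbiz* were lower under the fold limit (−0.81, −0.78, −0.56 and −0.52). At any fold 3 receptors and 6 IL-1 and TNF genes were lower, against 10 of each with DESeq2 and 15 of each with only the 4 CD115+ libraries. *Traf1* and *Ltb* were not called without any 1 of the 4 CD115+ libraries, nor *Ltb* with the replicate block (adjusted p = 0.0566). *Tnf* and *Nlrp3* had 0.01 and −0.27. Of 20 phagocytic and Fc receptors, *Cd300lf* rose (70.3 and 57.1 against 31.0 and 29.2 CPM, 1.08, adjusted p = 0.00873) and *Cd36* fell. *Cd300lf* was not called without replicate 1 of tCD115+ or either replicate of nCD115+, and *Cd36* not without any 1 of the 6 libraries other than those of tCD115-.

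Several further genes of large change, all but *Mt1*, belong to no list. *F11r*, which encodes the junctional adhesion molecule JAM-A, stood at 34.6 and 34.9 CPM in tCD115+ against 3.05 and 6.47 CPM in nCD115+ (2.87, SE 0.35, adjusted p = 0.00873). *Atp11a*, a phospholipid flippase gene, stood at 367 and 344 against 99.2 and 124 CPM (1.67, SE 0.20, adjusted p = 0.00873). *Dmkn*, a secreted protein gene, rose by 2.10, the laminin chain *Lamc1* by 1.78, the antiviral membrane protein gene *Ifitm1* by 1.65, the mRNA decay factor *Zfp36l1* by 1.48, the tetraspanin *Tspan14* by 1.41 and the metallothionein *Mt1* by 1.44. *Ifitm1*, unlike the members of the interferon list, rose, while *Ifitm3* had −0.38 without passing. These 8 calls were each lost without replicate 1 of tCD115+ and without at least 1 other library. That of *Tspan14* was lost in 10 of 16 alternatives, also with limma-voom, DESeq2 size factors, no filter and the replicate block. That of *Zfp36l1* was lost in 9, also with the replicate block and with only the 4 CD115+ libraries, and its log2 fold change lay between 0.92 and 1.88. *Ifit1bl1*, a relative of *Ifit1*, fell by 2.39.

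The inducible Hsp70 genes, *Hspa1a* and *Hspa1b*, are near-identical. *Hspa1a* stood at 8.27 and 8.46 CPM in tCD115+ against 75.3 and 35.7 CPM in nCD115+ (−2.73, SE 0.59, adjusted p = 0.0383), and *Hspa1b* at 9.59 and 12.3 against 88.5 and 42.0 CPM. The naive libraries differed about as much from each other in both. The 2 calls were lost in 9 of 16 alternatives, among them the replicate block, no filter and only the 4 CD115+ libraries. Other chaperones went the opposite way under the fold limit, with *Hsp90aa1* at 0.60, *Hspd1* at 0.54 and *Hsp90ab1* at 0.35. Of 22 immediate early genes, which handling of tissue can induce, *Ier3* rose (1.12) and *Atf3* fell (−1.04), with a median of −0.26, which was −0.59 without replicate 1 and −0.16 without replicate 2 of tCD115+. *Atf3* was not called in 9 of 16 alternatives, among them those without any 1 of the 4 CD115+ libraries, and *Ier3* not without replicate 1 of tCD115+ or either replicate of nCD115+. At any fold 2 of the genes were lower, and 10 with only the 4 CD115+ libraries.

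Genes that were called in all 4 fits without a CD115+ library are named next because of that, after their values were seen. *Hsd11b1*, which regenerates active glucocorticoid, stood at 65.6 and 63.2 CPM in tCD115+ against 27.1 and 23.7 CPM in nCD115+ (1.34, SE 0.10, adjusted p = 0.00181). *Il1f9*, the gene of the cytokine IL-36γ, stood at 9.97 and 7.19 against 0.855 and 0.982 CPM (3.22, SE 0.30, adjusted p = 0.00365), and *Rhov* at 2.30 and 1.73 against 0.113 and 0.0819 CPM. *Lrg1*, *Spint1* and *Zfp965* were the other genes that rose. On the lower side stood *Agrn* (agrin, −1.47), *Aplnr* (the apelin receptor, −2.51), *Mtss1* (an actin-binding protein, −1.53) and *Slamf7* (−2.22), with *Jchain*, the joining chain of secreted antibodies, at −2.32 (0.667 and 0.523 against 2.92 and 3.09 CPM). The rest of the 21 are *Cd74*, *Cd209a*, *Hpgd*, *Itgb3*, *Slamf8*, *Timp2*, *Tgtp2* and the 9 interferon-stimulated genes above.

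Some called genes had no read in a group, so that only a bound can be given, taken from a floor of 3 counts summed over its libraries. There were 7 such genes among those that rose and 14 among those that fell. *Spint1*, an inhibitor of membrane serine proteases, had 325 and 148 reads (3.28 and 2.04 CPM) in tCD115+ and was at least 166-fold higher than in nCD115+. *Entpd3*, an ectonucleotidase gene, had 125 and 61 reads and was at least 65.4-fold higher, and *Zfp965* had 111 and 80 reads and was at least 69.1-fold higher. *Fst*, which encodes follistatin, a binder of activin, had 32 and 30 reads and was at least 22.9-fold higher. In the other direction, *Cd55*, a brake on complement, had 48 and 44 reads in nCD115+ and was at least 28.3-fold lower in tCD115+. *Fcer2a*, the low-affinity IgE receptor of B cells, had 39 and 45 reads and was at least 25.7-fold lower. These levels are low, at 3.28 CPM or less in any CD115+ library. The CD115- cells did not show the same direction for *Zfp965* and *Cd55*. *Zfp965* averaged 0.693 CPM in tCD115- (SD 0.342) and 1.05 in nCD115- (SD 0.108), and *Cd55* 3.21 (SD 1.96) and 1.18 (SD 0.524). The means of *Spint1*, *Entpd3*, *Fst* and *Fcer2a* differed in the same direction in both subsets.

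Many listed genes of DNA replication and mitosis were higher by less than 2-fold. None of the 28 replication genes reached the fold limit, but 24 passed the test at any fold (6.09% of all genes did in this direction). All 28 were positive under each scaling tried, with a median of 0.68. In all 28 both tumor libraries lay above both naive ones, against 36.3% of all tested genes. *Rrm1*, a subunit of ribonucleotide reductase, stood at 387 and 403 CPM in tCD115+ against 261 and 227 CPM in nCD115+ (0.69, SE 0.11, adjusted p = 0.0162). *Mcm5*, a subunit of the replicative helicase, stood at 326 and 337 against 221 and 201 CPM (0.65, SE 0.09, adjusted p = 0.0117). Of 28 mitosis genes 16 passed at any fold, all higher, with a median of 0.47. *Top2a*, a DNA topoisomerase, stood at 1089 and 1124 against 812 and 744 CPM (0.51, adjusted p = 0.0227), and *Mki67* at 1106 and 1201 against 911 and 930 CPM (0.33, adjusted p = 0.183). *Pttg1* alone was negative (−0.20).

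These counts need all 4 libraries. In the fits without tCD115+ replicate 1, tCD115+ replicate 2, nCD115+ replicate 1 and nCD115+ replicate 2, 1, 0, 10 and 0 replication genes passed, and no mitosis gene passed in any of these 4 fits. Leaving out replicate 1 or 2 of nCD115- left 6 or 7 mitosis genes, and 26 passed with only the 4 CD115+ libraries. The medians moved less, between 0.58 and 0.81 and between 0.37 and 0.58 over the fits. Markers of stem and progenitor cells summed to 67.7 and 61.5 CPM in tCD115+ and 77.2 and 69.7 in nCD115+. Of these 12, *Hoxa9* rose, at 0.801 against 0.0767 CPM on average. The part of cell composition in the cycle genes was not tested.

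Of 28 glycolysis and hypoxia genes, 10 were higher and 3 lower at any fold (median 0.24). *Pkm*, pyruvate kinase, stood at 2096 and 2014 CPM against 1615 and 1648 CPM (0.33, adjusted p = 0.0471), and *Eno1*, enolase, at 1284 and 1264 against 985 and 997 CPM (0.36, adjusted p = 0.0253). *Gapdh*, *Pgk1* and *Ldha* had 0.63, 0.63 and 0.62, while the regulatory enzymes *Hk2*, *Pfkfb3* and *Pfkfb4* were lower (−0.47, −0.48 and −0.55). *Vegfa* and *Slc2a3*, which hypoxia induces, had −0.23 and −0.01. Of 48 nuclear subunits of oxidative phosphorylation 8 were higher at any fold (median 0.23), with *Atp5b*, of ATP synthase, at 989 and 1012 against 760 and 725 CPM (0.43, adjusted p = 0.0201). All 48 were positive, though 47 with library totals and 46 with DESeq2 size factors or DESeq2.

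Of 25 ER stress genes 9 were higher at any fold, none lower, and the median was 0.35. The chaperones *Hspa5*, *Pdia4*, *Pdia6*, *Calr* and *Manf* had values between 0.44 and 0.61, while the stress sensors' targets *Ddit3* and *Ppp1r15a* had −0.24 and −0.06. *Asns*, asparagine synthetase, alone passed at the fold limit (1.18, 3.47 against 1.53 CPM on average). Of 75 ribosomal protein genes 1 was higher at any fold, with a median of 0.08. Without any 1 of the 4 CD115+ libraries no glycolysis, oxidative phosphorylation or ER stress gene passed. Leaving out either replicate of nCD115- left 4 glycolysis genes and 1 phosphorylation gene higher, and leaving out replicate 1 left 5 ER stress genes. With DESeq2 16 phosphorylation genes were higher and with only the 4 CD115+ libraries 26. Among 26 antioxidant and iron genes, *Mt1* and *Gclm* rose, the latter a subunit of the enzyme that limits glutathione synthesis (38.8 and 38.6 against 19.2 and 17.8 CPM, 1.06, adjusted p = 0.00997). Neither was called without any 1 of the 4 CD115+ libraries. Sterol and fatty acid genes had a median of 0.02, and *Scd1* fell by 1.96 at about 1 CPM or less. None of 24 apoptosis genes was called at the fold limit.

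Markers of lymphoid and erythroid cells were low in both groups, with lower sums in the tumor libraries. T cell genes, which also mark EL4, summed to 4.14 and 5.09 CPM in tCD115+ against 9.01 and 7.60 in nCD115+, and 4 of 17 fell (*Cd8b1*, *Cd4*, *Lck* and *Cd3g*). The T cell receptor subunits *Cd3d* and *Cd3e* were at 0.0556 and 0.056 CPM on average in tCD115+ and at 0.216 and 0.120 in nCD115+. NK cell genes summed to 4.43 and 5.09 against 11.4 and 11.1 CPM, and 4 of 10 fell (*Klrk1*, *Il2rb*, *Gzma* and *Prf1*). Most of this sum was *Klrk1*, with 403 and 323 against 840 and 889 reads. Of the NK values 8 were negative and 1 positive, that of *Gzmb* (7 and 13 against 5 and 3 reads). The calls of *Cd3g* and *Gzma* were lost with the replicate block (adjusted p = 0.0553 and 0.0662). *Cd8b1* and *Prf1* had no read in either tumor library. Of 13 B cell genes, *Ms4a1*, *Ebf1* and *Cd79a* fell and all values were negative (median −1.75). Erythroid genes summed to 2.32 and 2.67 against 7.67 and 11.9 CPM, and *Slc4a1* and *Car2* fell. Of 9 basophil and mast cell genes *Prss34* fell (1.47 and 1.42 against 4.77 and 4.53 CPM). The summed levels did not overlap between the groups in any of these lists. With 2 libraries against 2 this is common. Among all tested genes, both tumor libraries lay below both naive ones in 31.1% and above in 36.3%. The calls of T, NK, B and erythroid genes were 0 at any fold without any 1 of the 4 CD115+ libraries.

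**Figure D4:**
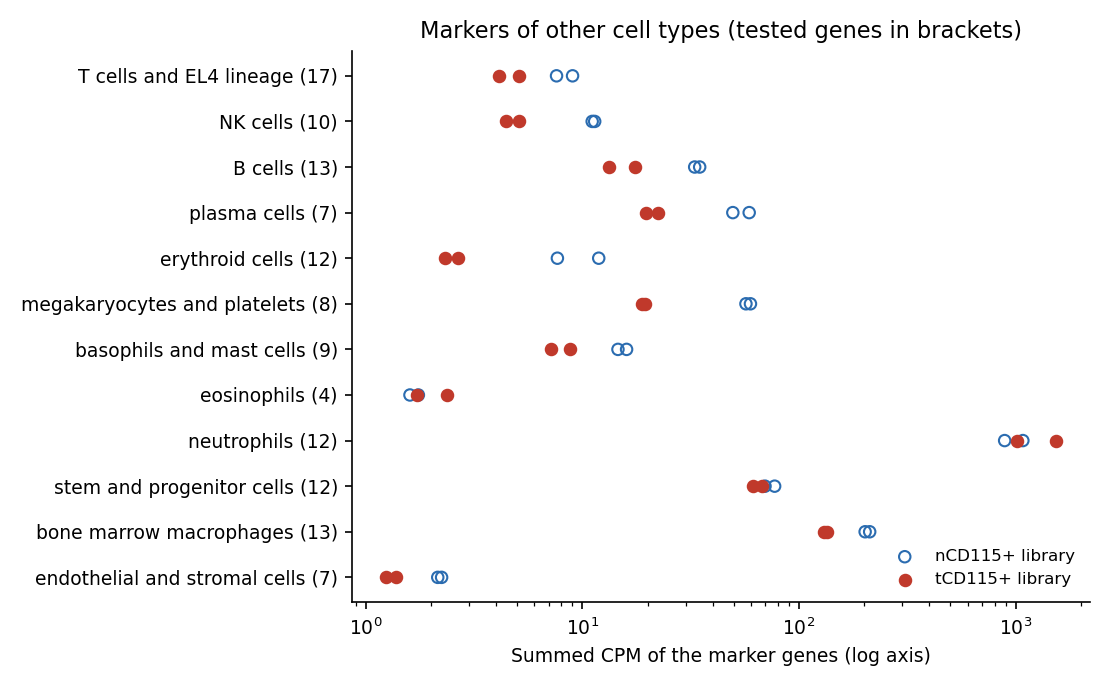
Summed CPM (x axis, log axis) of the marker genes of 12 other cell types in each tCD115+ (red) and nCD115+ (open blue) library, with the number of tested genes in brackets. The T, NK, B, plasma, erythroid and basophil and mast cell sums are lower in both tumor libraries. The neutrophil sums overlap (1540 and 1010 against 890 and 1080 CPM). Most of the NK sum is *Klrk1*, and *Cd79b* holds the most reads of the B cell list. Most of the plasma sum is *Irf4* (1237 and 1117 against 3425 and 4368 reads), also in the dendritic cell list. Of the 7 plasma cell genes 2 had positive and 5 negative values.

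The CD115- cells of the same kinds of mice were compared in the same way, with 113 genes higher (0.855%) and 321 lower (2.43%) in tCD115- than in nCD115-. The 2 comparisons have no library in common but share 1 estimate of spread. Whether both subsets were sorted from the same mice is not stated, so the comparisons may not be independent. Of the genes that rose in CD115+ cells 51 also rose in CD115- cells, 41.1% of the first list and 45.1% of the second. Of those that fell 136 were shared, 62.1% and 42.4%. No gene passed the test of the difference between the tumor effects (0% of 13211 in either direction; edgeR, with 751 genes at an unadjusted p under 0.05). limma-voom also called none, whereas DESeq2 called 12 genes with a more positive and 57 with a more negative effect in CD115+ cells. With edgeR the counts were 113 and 60 when replicate 2 of tCD115- was left out and 7 and 16 without its replicate 1.

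Several leading genes had close values in the 2 subsets. *Cd209a* had −2.92 in CD115+ and −2.96 in CD115- cells, *Rsad2* −2.22 and −2.21, *F11r* 2.87 and 2.95 and *Saa3* 3.004 and 2.94. The medians of the interferon-stimulated genes were −0.81 and −0.94, of class II genes −0.77 and −1.01 and of DNA replication genes 0.68 and 0.41. Wider gaps did not pass the test. *Lrg1* had 4.67 and 1.69 (difference 2.98, adjusted p = 0.203), *Wfdc21* 3.33 and 0.98 (adjusted p = 0.514) and *Ifit2* −1.68 and −0.68 (adjusted p = 0.203). *Cd177* had −1.19 and 0.72 (adjusted p = 0.184), *Jchain* −2.32 and −0.54 (adjusted p = 0.184), and *Itgb3* −1.71 and −0.94 (adjusted p = 0.116). The T cell markers had medians of −1.06 in CD115+ and 0.63 in CD115- cells, a difference that was not tested as a list. The value in CD115+ cells was between −1.50 and −0.74 when 1 of their 4 libraries was left out and −0.35 over the 6 markers with at least 10 counts in every library.

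*Csf1*, which encodes the M-CSF that CD115 binds, was the single gene called in opposite directions, and is named for that, with its values known. Its level was 1.45 and 1.31 CPM in tCD115+ against 3.79 and 4.21 CPM in nCD115+, a log2 fold change of −1.54 (SE 0.22, adjusted p = 0.0124), and had 1.25 in CD115- cells. The difference of −2.79 had an adjusted p of 0.0805 and did not pass. The call of *Csf1* in CD115+ cells was lost without any 1 of the 4 CD115+ libraries.

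**Figure D5:**
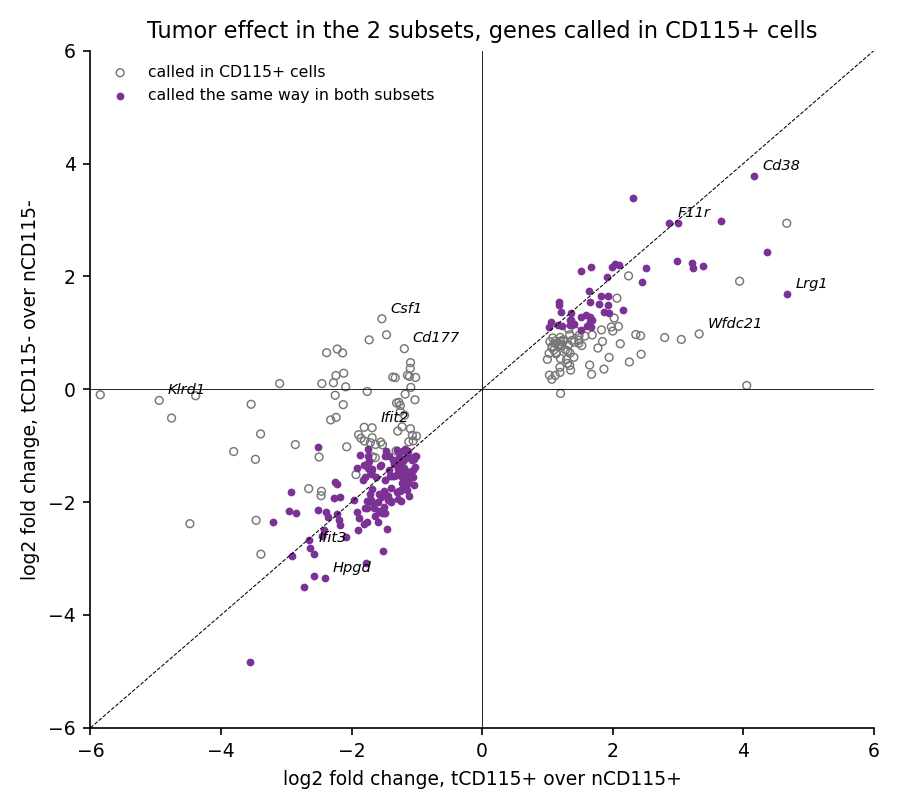
Log2 fold change in CD115+ cells (x axis) against that in CD115- cells (y axis) of the genes called in CD115+ cells, with the diagonal dashed; purple genes were called the same way in both subsets, and 20 genes lie beyond the axes. *Cd38* and *F11r* lie near the diagonal, *Lrg1* and *Wfdc21* below it, and *Csf1* in the upper left (−1.54 and 1.25).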

How the data were processed

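CD115+ monocytic cells of BM were compared between EL4 TB mice (2 libraries) and naive mice (2 libraries), placed by the sample labels. The authors deposited whole-number read counts per gene and FPKM values from stranded poly(A) RNA-Seq. Among the tools in the submitters' processing notes are StringTie (1.3.3b), HISAT2 (2.0.5), Bowtie2 and DESeq2, with the mouse build mm10 and no role for each. Whether reads were counted by strand was not found in the labels or methods, so overlapping and antisense genes cannot be separated. In the table, 12 other columns of values per sample or group and 24 columns of the authors' comparisons (fold changes and p-values) were not used.

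The counts were tested with edgeR 4.0.16 in R 4.3.3 (filterByExpr, TMM, robust quasi-likelihood fit of all 8 libraries, 1 mean per group, with 4 residual degrees of freedom and a median prior of 3.65) and called at an adjusted p under 0.05 and a fold of at least 2, the thresholds of the study. At the largest and the smallest library total 1 read was 0.0105 and 0.0143 CPM. FPKM was averaged over the 2 libraries and only used to compare levels between genes. Positions of 13184 of the tested genes came from RefSeq (GRCm38.p6). The test was tested on simulated data. Alternatives were DESeq2 1.42.0, limma-voom (limma 3.58.1), other scaling, other filters, a replicate block, the 4 CD115+ libraries alone and each library left out. Figures used matplotlib 3.10.9.

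By the rule for named genes, the text names the called genes of largest change that reached 10 CPM on average and whose libraries do not overlap (15 per direction at most, without predicted genes), 6 called members per list at most (where fewer than 2 were called, the 2 of highest CPM), the sorting markers, and up to 10 genes called for the difference between subsets, of which there were none. Other genes named as examples were chosen after their values were seen. The members and lists were chosen with earlier results of these data known.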

Additional observations from a re-analysis of the deposited data

How the results depend on the processing

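The counts of genes higher and lower in tCD115+ were 163 and 309 with DESeq2, 117 and 219 with limma-voom, 117 and 211 with library totals, 111 and 226 with DESeq2 size factors, 116 and 207 with no filter and 117 and 199 among genes with 10 or more counts in each library. With the replicate block they were 106 and 189, of which 101 and 182 were among the 124 and 219. The study does not state whether replicate numbers pair the samples. The replicate difference of tCD115+ correlated at −0.0292 with that of nCD115+ and at 0.0685 with that of tCD115-. These values cannot settle the pairing, so the block stands only as an alternative. With only the 4 CD115+ libraries they were 177 and 312. With no limit on fold the main fit gave 804 and 555, DESeq2 size factors 612 and 602, and only the 4 CD115+ libraries 1894 and 1896. Leaving out 1 library gave 14 to 173 higher and 27 to 315 lower. More genes were called without replicate 1 or 2 of tCD115- (166 and 315, 173 and 305). The cause was not tested. Genes with a more positive or more negative effect in CD115+ than CD115- cells numbered 12 and 57 with DESeq2, 1 and 3 with no filter, 0 and 0 with limma-voom and with the replicate block, and 0 to 113 and 0 to 60 without 1 library. This difference needs all 4 groups and was not fitted with only the 4 CD115+ libraries. No called gene named by the rule changed direction under these alternatives. Of the called genes, 3 that rose and 21 that fell were called in all 16 alternatives. Low genes are limited by depth: 1 read was 0.0105 to 0.0143 CPM.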

Other observations

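A few genes changed by over 30-fold between the 2 libraries of 1 group, at 5 CPM or more in the higher library, and none of them was called. *Rps27* stood at 2.29 and 284 CPM in tCD115+, while its retrocopy *Rps27rt* stood at 290 and 1.76 CPM, and the sum of both was 292 and 286 CPM, against 335 and 336 in nCD115+. *Atp6v0c* stood at 344 and 8.72 CPM in nCD115+ while its pseudogene *Atp6v0c-ps2* stood at 0.0225 and 325 CPM, with sums of 344 and 333 against 410 and 395 CPM in tCD115+. *Gm10052* (15.2 and 491 CPM in tCD115+, 402 and 4.82 in nCD115+), *Gm8979*, *Chil4*, *Zbed5* and *Tubb2b* behaved likewise in at least 1 group.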
